A study of Mus musculus with 2 samples.

Results

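The set described here is 10 imprinted genes of the growth network, H19, Igf2, Plagl1, Dlk1, Meg3, Cdkn1c, Grb10, Peg3, Mest and Igf2r, out of 32589 genes counted. They were found by their symbols, and all 10 have a row of counts. The set was selected on levels and differences between the libraries that were already known from these data, so the levels and ratios of the members are given as a description and carry no test.

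Nuclei were isolated from the hearts of male C57BL/6 mice, 8 weeks old when purchased, and sequenced as 1 library of a Control group and 1 library of a PD-1 inhibitor group. PD-1 inhibitor is an anti-mouse PD-1 antibody that blocks an immune checkpoint receptor of T cells. It was injected intraperitoneally at 5 mg/kg on days 1 and 14 of a cycle of 28 days, and Control mice were injected with PBS on the same days. No transgene or tumor is named for either group. How many hearts were pooled into a library is not given in the sources used here. The strain is inbred, so the counts do not separate the maternal from the paternal allele, and imprinting itself was not measured.

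The files hold 10197 Control and 7967 PD-1 inhibitor barcodes with median totals of 1020 and 1066 unique molecular identifiers (UMIs), each UMI being 1 captured RNA molecule. After filtering, 9522 and 7644 nuclei remained, and 47 barcode sequences occurred in both libraries. Nuclei were clustered without the 10 members among the genes used, and 20 of 21 clusters were named from marker lists, each name meaning that the cluster is like that cell type. Endothelial cells (ECs) made up 2805 Control and 2506 PD-1 inhibitor nuclei, and all 10 EC markers were detected in both. Among them, 1409 and 1503 nuclei formed an endocardial-like cluster that detected 7 of 8 endocardial markers, called endocardial ECs. H19 and Plagl1 were among its 10 leading genes, although they had not been used to build it. The other subtypes were capillary ECs with 981 and 687 nuclei, lymphatic ECs with 235 and 159, arterial ECs with 101 and 89, and valve ECs with 79 and 68. Levels are UMIs per 1000000 UMIs of the same nuclei (CPM). Intervals are exact 95% intervals that cover counting error only, and with 1 library per condition no value says how far hearts of one group differ. They treat each UMI as independent of the others. Over endocardial nuclei, however, the variance was 4.74 (Control) and 6.80 (PD-1 inhibitor) times the mean for H19, and 2.10 and 2.17 times for Plagl1. The intervals of such genes are therefore too narrow even within a library.

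In genomic imprinting only the copy inherited from one parent is active. Many imprinted genes form a network that is strongly expressed in the fetus and sets the rate of growth, and most of it falls silent after birth. Igf2 encodes a fetal growth factor, Igf2r the receptor that removes it, and H19 a long non-coding RNA that shares enhancers and an imprinting control region with Igf2. Plagl1 encodes a zinc-finger transcription factor known to act on several other members, whereas Cdkn1c (p57, an inhibitor of cyclin-dependent kinases) and Grb10 (an adaptor that binds insulin and IGF receptors) restrain growth.

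H19, Igf2, Meg3 and Mest also host microRNAs, which are shown because the host transcripts are what the libraries count. The counts are of host gene UMIs and hold no measurement of any microRNA. Sequences are from RefSeq on GRCm38.p6, written 5′ to 3′, with the seed (bases 2 to 8) of each mature microRNA in capitals.
miR-675-5p (H19, chr7:142577112-142577133, minus strand): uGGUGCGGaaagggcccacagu
miR-675-3p (H19, chr7:142577078-142577099, minus strand): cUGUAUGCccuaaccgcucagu
miR-483-5p (Igf2, chr7:142654968-142654989, minus strand): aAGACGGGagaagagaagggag
miR-483-3p (Igf2, chr7:142654932-142654952, minus strand): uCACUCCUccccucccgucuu
miR-770-5p (Meg3, chr12:109563710-109563731, plus strand): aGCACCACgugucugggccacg
miR-335-5p (Mest, chr6:30741314-30741336, plus strand): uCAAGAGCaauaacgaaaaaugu
No pair of these microRNAs shares a seed. miR-675 is cut from within H19, and miR-483, miR-770 and miR-335 lie within the spans of Igf2, Meg3 and Mest.

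The PLAGL1-type motif GGGGCCCC, which is its own reverse complement, was searched in the windows from 250 bases before to 50 bases after the RefSeq start of 8 members. It occurred in 1 of them, Peg3, 201 bases before the start (chr7:6730587-6730646, minus strand), and the stretch is shown with the motif in capitals.
Peg3 upstream stretch: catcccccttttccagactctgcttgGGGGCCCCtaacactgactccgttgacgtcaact
Of 32544 windows of this length, 349 (1.07%) hold the same letters, and of 26742 genes with a window, 333 (1.245%) do. Some members had more than 1 window, whereas H19 and Cdkn1c had none and were not searched. A match is not evidence of binding.

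H19 and Plagl1 were concentrated in endocardial ECs in both libraries. H19 lies on chromosome 7 (142575529 to 142578143, minus strand, GRCm38) and spans 2.62 kb. Endocardial ECs held 887 of the 1078 Control H19 UMIs (82.3%) and 1576 of the 1834 PD-1 inhibitor UMIs (85.9%), although they were only 14.8% and 19.7% of the nuclei. The H19 level there was 579 CPM (542 to 619) in Control and 898 CPM (854 to 943) in PD-1 inhibitor. All other nuclei together had 18.1 and 30.2 CPM.

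**Figure D1:**
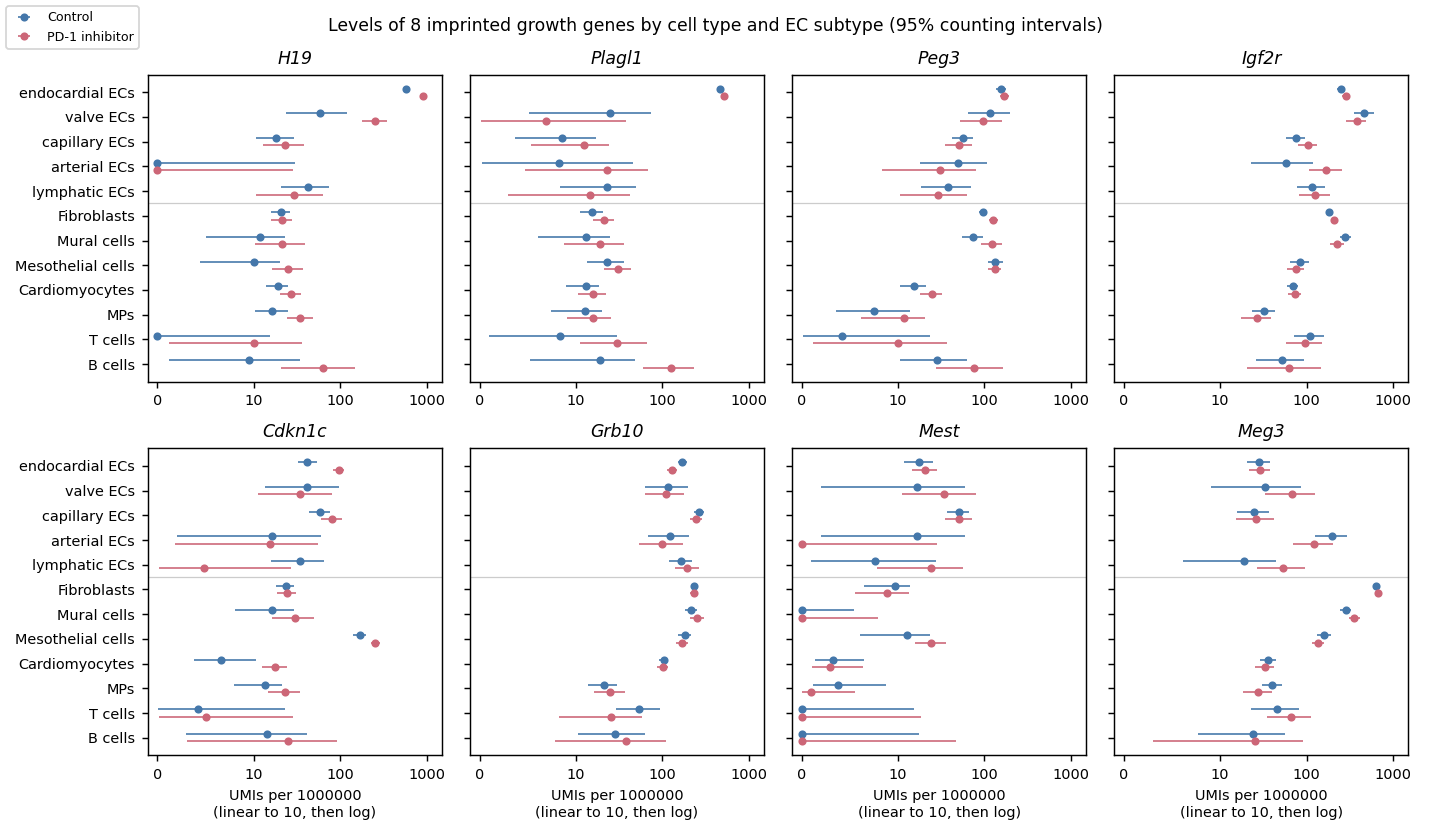
Level of 8 members in 5 EC subtypes (above the grey line) and 7 other cell types, in UMIs per 1000000 on an axis that is linear to 10 and logarithmic beyond, for the Control (blue) and the PD-1 inhibitor (red) library; bars are 95% counting intervals. H19 and Plagl1 are highest in endocardial ECs, Meg3 in fibroblasts and Cdkn1c in mesothelial cells in both libraries.

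Among groups of at least 50 nuclei, valve ECs came next to endocardial ECs for H19, with 58.3 CPM (7 UMIs) in Control and 254 CPM (37 UMIs in 9 of 68 nuclei) in PD-1 inhibitor. In the PD-1 inhibitor library the interval of valve ECs, 179 to 350.2 CPM, overlapped neither that of endocardial ECs nor that of the next group. In the Control library the interval of valve ECs overlapped that of lymphatic ECs, which had 11 UMIs and 42.0 CPM. Fibroblasts were at 20.7 and 21.3 CPM, and capillary ECs at 18.3 and 23.2 CPM. In arterial ECs no H19 UMI was counted among 101 and 89 nuclei, which allows a level of up to 24.6 and 23.1 CPM.

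H19 was carried by a minority of endocardial nuclei and was uneven among them. A UMI of H19 was found in 312 of 1409 Control nuclei (22.1%, 20 to 24.4%) and in 429 of 1503 PD-1 inhibitor nuclei (28.5%, 26.3 to 30.9%). When each nucleus was thinned to 500 UMIs, which left out no nucleus, the shares were 16.2% and 21.2%. T cells, which are not known to express H19, had a UMI in 0 of 240 Control nuclei, which allows a share of up to 1.25%, and in 2 of 193 PD-1 inhibitor nuclei (1.04%), at median depths of 848.5 and 884 UMIs against 924 and 978 in endocardial ECs. Shares in some other cell types were higher than in T cells. They were 2.56% and 4.02% in cardiomyocytes and 1.67% and 4.33% in mesothelial cells. Fibroblasts had 1.82% and 2.34%, and MPs (cells with macrophage markers) 1.51% and 2.95%. A positive endocardial nucleus had on average 2.84 H19 UMIs in Control and 3.67 in PD-1 inhibitor.

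**Figure D2:**
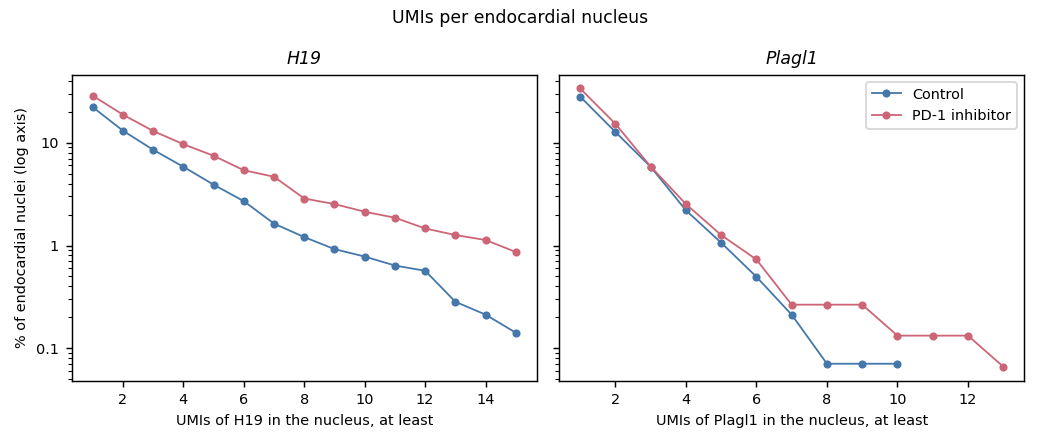
Percent of endocardial nuclei (log axis) with at least the number of UMIs on the horizontal axis, for H19 up to 15 UMIs and for Plagl1 over its whole range, in each library. The H19 curves separate from 22.1% and 28.5% of nuclei at 1 UMI to 0.781% and 2.13% at 10 UMIs, whereas the Plagl1 curves lie close together up to 7 UMIs.

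The upper end of the H19 distribution was wider in the PD-1 inhibitor library. At least 5 UMIs of H19 were found in 55 Control nuclei (3.90%) and in 112 PD-1 inhibitor nuclei (7.45%), and at least 10 in 11 and 32. The highest counts were 21 and 32, and the 10 highest nuclei held 14.9% and 12.7% of the endocardial H19 UMIs, so that no few nuclei carried the level.

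Plagl1 (chromosome 10, 13060504 to 13131694, plus strand) was likewise an endocardial RNA. Its level in endocardial ECs was 467 CPM (433 to 503) in Control and 518 CPM (485 to 553) in PD-1 inhibitor, with 81.6% and 84.1% of all Plagl1 UMIs. Capillary ECs were at 8.59 and 12.4 CPM, 8 UMIs in each library, and valve ECs at 24.99 and 6.87 CPM, from 3 and 1 UMIs. Too few Plagl1 UMIs were counted in valve ECs to place them among the other groups. In B cells of the PD-1 inhibitor library 10 UMIs in 3 of 80 nuclei made 126 CPM (60.4 to 232). A Plagl1 UMI was found in 395 Control (28.0%) and 505 PD-1 inhibitor (33.6%) endocardial nuclei, against 2 of 240 (0.833%) and 5 of 193 (2.59%) T cells. Thinned to 500 UMIs, the endocardial shares were 16.8% and 20.5%.

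H19 and Plagl1 met in part in the same nuclei. Among Control endocardial nuclei with a Plagl1 UMI, 29.9% (25.4 to 34.7%) also had an H19 UMI, against 19.1% (16.8 to 21.7%) of those without. In the PD-1 inhibitor library the shares were 34.3% (30.1 to 38.6%) and 25.7% (23.0 to 28.5%). Nuclei with Plagl1 were also deeper, with medians of 1065 against 875 UMIs in Control and 1126 against 921 in PD-1 inhibitor. At 500 UMIs per nucleus, 236 and 308 nuclei kept a Plagl1 UMI. The shares were then 19.1% against 15.6% and 25% against 20.3%, so that both gaps were smaller at equal depth. No interval was taken for these shares, so it was not shown that the gaps go beyond counting error.

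At a finer resolution of the clustering, nearly all endocardial nuclei fell into 4 clusters, and H19 was not even across them. The cluster led by Nrg1 (a growth factor of the endocardium), Pdgfc and Col4a3, which alone kept 7 of the 8 endocardial markers, had 664 CPM of H19 in Control and 1035 CPM in PD-1 inhibitor. That led by Slco1a4, Tgfbi and Misp had 781 and 985 CPM, and that led by Flrt2, Snx24 and Adh1 had 518 and 1081 CPM. The fourth, led by Lsamp, Fos and Bmp4, had 232 and 228 CPM from 87 and 72 UMIs. Its best match against the other ECs was arterial, with 3 of 8 markers, and it got no subtype name. The clusters led by Slco1a4 and Flrt2 matched 2 of 8 endocardial markers and got none either. The PD-1 inhibitor library thus had the higher H19 level in 3 clusters, and near equal levels in the cluster with the least H19, which held 304 Control nuclei against 189. Plagl1 in that cluster was 283 CPM in Control and 117 CPM in PD-1 inhibitor, and in the other 3 it ranged from 476 to 536 CPM and from 472 to 653 CPM.

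Igf2 had no UMI in any of the deposited barcodes of either library. Its span on chromosome 7 (142650766 to 142666816, minus strand) is covered to 99.98% by another gene of the files on the same strand, Gm49394, which is also at 0. Of 700 protein-coding genes covered to at least 90% by another gene on the same strand, 617 (88.1%) have no UMI, against 3028 of 20037 (15.1%) that are not overlapped. The 0 of Igf2 therefore cannot be read as absence of its RNA, and the limit of 1.96 and 1.71 CPM that a count of 0 allows in endocardial ECs holds only for reads that would have been assigned to it. Igf2os, an antisense RNA that overlaps 44.4% of Igf2, had 10 and 7 UMIs.

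Meg3 and Dlk1 are neighbours on chromosome 12, Meg3 a maternally expressed long non-coding RNA and Dlk1 a paternally expressed membrane protein related to Notch ligands. Meg3 was a fibroblast RNA here, with 639 CPM (610.4 to 668) in Control and 667 CPM (635 to 699.8) in PD-1 inhibitor, 76.1% and 75.7% of all its UMIs. A Meg3 UMI was found in 36.2% and 36.7% of fibroblast nuclei, 22.7% and 21.4% after thinning to 500 UMIs, against 3.33% and 2.59% of T cells. Among groups of at least 50 nuclei, mural cells came second at 284 and 357 CPM. Arterial ECs (197 and 123 CPM, from 24 and 16 UMIs) and mesothelial cells (159.5 and 136 CPM) followed with overlapping intervals, and in Control the interval of arterial ECs also reached that of mural cells. The few glial nuclei, 31 and 10, had 389 and 281 CPM from 13 and 4 UMIs. Capillary ECs had 24.7 and 26.3 CPM. Dlk1 was nearly absent, with 10 UMIs in Control, 6 of them in fibroblasts, and 5 in PD-1 inhibitor, 4 of them in fibroblasts.

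Cdkn1c (chromosome 7, 143458339 to 143461050, minus strand) was highest in mesothelial cells, the layer that covers the heart. Their level was 168 CPM (141 to 199.6) in Control and 254 CPM (225 to 287) in PD-1 inhibitor, from 133 and 264 UMIs. A Cdkn1c UMI was found in 12.1% and 18.4% of mesothelial nuclei, against 1 of 240 and 1 of 193 T cells, and after thinning to 500 UMIs in 6.68% and 8.87%. Capillary ECs had 58.0 and 80.3 CPM and endocardial ECs 41.8 and 95.7 CPM. The intervals of these EC subtypes overlapped in each library, and their order was exchanged between the libraries. In endocardial ECs the UMIs came from 50 nuclei (3.55%) and 116 nuclei (7.72%), or 2.06% and 3.73% after thinning. Fibroblasts were at 23.4 and 24.2 CPM, and cardiomyocytes at 6.56 and 17.6 CPM, from 16 and 36 UMIs.

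The remaining 4 members were spread over several cell types. Igf2r was highest in valve ECs, at 466.5 CPM (352 to 606) from 56 UMIs in Control and 378 CPM (285 to 492) from 55 UMIs in PD-1 inhibitor, where the interval overlapped that of endocardial ECs. Mural cells (281 and 227 CPM) and endocardial ECs (249.5 and 283 CPM) followed with overlapping intervals, and fibroblasts had 184 and 209 CPM. Capillary ECs were at 75.2 and 103.5 CPM.

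Grb10 was spread widely. Capillary ECs (266 and 246 CPM), fibroblasts (232 and 229 CPM) and mural cells (215 and 252.5 CPM) had overlapping intervals in both libraries. Endocardial ECs stood at 169.8 and 131 CPM, and MPs, the cells with macrophage markers, at 21.0 and 24.8 CPM.

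Peg3, which encodes a zinc-finger protein, was highest in endocardial ECs at 156 CPM (137 to 177) and 170.4 CPM (152 to 191), with mesothelial cells overlapping at 134 and 131 CPM. The 154 adipocytes of the Control library had 152 CPM (115 to 198). Fibroblasts followed at 96.4 and 127 CPM. In cardiomyocytes it was 15.2 and 24.5 CPM.

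Mest, which encodes an enzyme-like membrane protein, was low and mainly endothelial. Capillary ECs had 50.5 CPM (47 UMIs) and 51.0 CPM (33 UMIs), against 17.6 and 20.5 CPM in endocardial ECs. No Mest UMI was found in mural cells of either library.

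By correlation of log2 levels over 24 points, 12 groups of nuclei in 2 libraries, the genes most like each member were found among 11481 genes. The groups share libraries, so these values are descriptions. H19 was most like Nrg1 (r = 0.78), Adh6b and Trim32, and Plagl1 most like Ahsg (r = 0.82), Gm20388 and Npr3, of which Nrg1 and Npr3 are endocardial markers used here. Meg3 was most like the collagen genes Col6a2 (r = 0.88), Col6a1 and Col1a1. Cdkn1c was most like Sorbs3 (r = 0.79), Fmo2 and Tmem98, and Igf2r most like Lrig1 (r = 0.87), Pdlim3 and Ift20. Grb10 was most like Nbea (r = 0.92), Parva and Cuedc1, Peg3 most like Armcx2 (r = 0.88), Mapk12 and Tceal9, and Mest most like Heph (r = 0.82), Tmem140 and Afdn. H19 and Plagl1 correlated at r = 0.63, below the best-matched genes of either, and Cdkn1c and Peg3 at r = 0.73.

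To see how the members differed between the libraries, UMIs were summed over the nuclei of each cell type and log2 ratios of PD-1 inhibitor over Control were taken, with 0.5 UMI added to each sum. Members and other genes were read from 50 UMIs in both libraries together, and a difference of 1.5-fold was used to count genes. In ECs, 8 members reached that number and 2 of them, H19 and Cdkn1c, were past 1.5-fold, both higher in PD-1 inhibitor. Of all 10694 genes read in ECs, 10.6% were past 1.5-fold in either direction and 6.05% were higher. The median log2 ratio of the 8 members was 0.26 in ECs, 0.17 in endocardial ECs and 0.05 in fibroblasts. It was 0.02 for the 5 members read in capillary ECs and -0.07 for the 6 read in mesothelial cells. Cardiomyocytes had 0.26 (7 members), mural cells 0.28 (4) and MPs -0.002 (4). The members were selected with such differences known, so these medians are no support for the set.

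In ECs as a whole, H19 was at 311 CPM (922 UMIs) in Control and 567 CPM (1634 UMIs) in PD-1 inhibitor, a log2 ratio of 0.87 (0.75 to 0.98). Endocardial ECs, the subtype with the most H19, were a larger share of ECs in that library. With the same mix of EC subtypes in both libraries the log2 ratio was 0.64, and within endocardial ECs it was 0.63 (0.51 to 0.75), a 1.55-fold difference. With the same mix of the finer endocardial clusters it was 0.55, just under 1.5-fold. Cdkn1c was at 45.2 CPM (134 UMIs) and 79.1 CPM (228 UMIs) in ECs, a log2 ratio of 0.80 (0.49 to 1.13). In endocardial ECs it was 41.8 CPM (64 UMIs) and 95.7 CPM (168 UMIs), a log2 ratio of 1.19 (0.77 to 1.63). Of the 4 finer endocardial clusters, those led by Nrg1, Slco1a4 and Flrt2 had 24 and 91, 19 and 34, and 6 and 37 Cdkn1c UMIs, higher in PD-1 inhibitor also per UMI. The cluster led by Lsamp, whose best match was arterial, went the other way, with 40.0 CPM (15 UMIs) and 15.8 CPM (5 UMIs). Again 2 of 8 members read in endocardial ECs were past 1.5-fold, where 11.1% of 9147 genes were past it in either direction and 6.54% were higher.

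**Figure D3:**
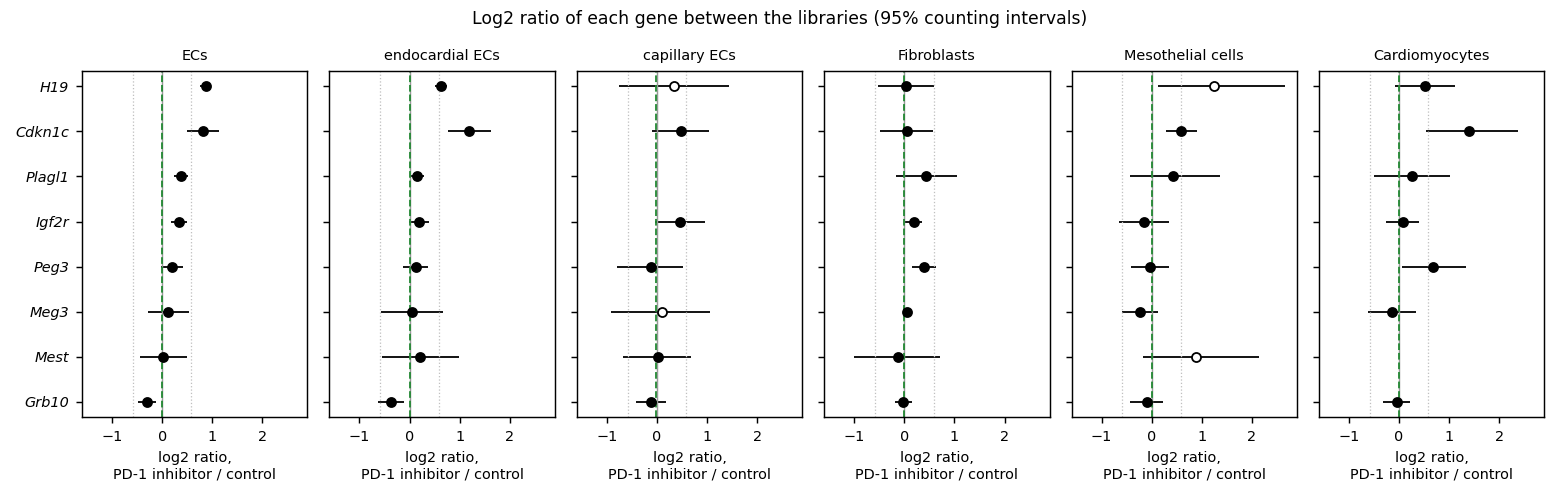
Log2 ratio of PD-1 inhibitor over Control for 8 members (rows) in ECs, 2 EC subtypes and 3 other cell types, with 95% counting intervals; open circles rest on fewer than 50 UMIs, the green dashed line is the median of all genes and the dotted lines mark 1.5-fold. H19 and Cdkn1c are the members past 1.5-fold in ECs and in endocardial ECs, Cdkn1c also in mesothelial cells and cardiomyocytes.

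The other members differed less in endocardial ECs. Plagl1 had a log2 ratio of 0.37 (0.23 to 0.52) in ECs, 0.15 with the same mix of subtypes, and 0.15 (0.01 to 0.29) in endocardial ECs. Igf2r had 0.33 (0.17 to 0.50) in ECs and 0.18 (-0.01 to 0.38) in endocardial ECs. Grb10 was the one member that was lower, at 196 and 159 CPM in ECs, a log2 ratio of -0.30 (-0.48 to -0.12), and -0.37 (-0.64 to -0.11) in endocardial ECs. Peg3, Meg3 and Mest had log2 ratios of 0.13, 0.05 and 0.21 in endocardial ECs with intervals that include 0.

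Ratios between these libraries moved with gene span, which concerns H19 and Cdkn1c directly, since both are under 3 kb. In ECs, the median log2 ratio was 0.31 for the 964 genes of up to 5 kb, 0.01 for genes of 20 to 50 kb and -0.19 for the 1745 genes over 100 kb. In endocardial ECs the same medians were 0.28, 0.01 and -0.14, and 18.3% of the 756 genes of up to 5 kb were past 1.5-fold higher. Relative to genes of like span, that is after the median of its class of span was subtracted, H19 in endocardial ECs had a log2 ratio of 0.35, which is no longer past 1.5-fold, and Cdkn1c had 0.91. In ECs as a whole H19 had 0.56 and Cdkn1c 0.50 on that scale, and neither was past 1.5-fold. Grb10, which spans 108 kb, had -0.23 in endocardial ECs and -0.11 in ECs. In fibroblasts, where genes of up to 5 kb had a median of 0.25, Cdkn1c had -0.20 and H19 -0.20 relative to genes of like span. What makes ratios move with span was not tested.

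**Figure D4:**
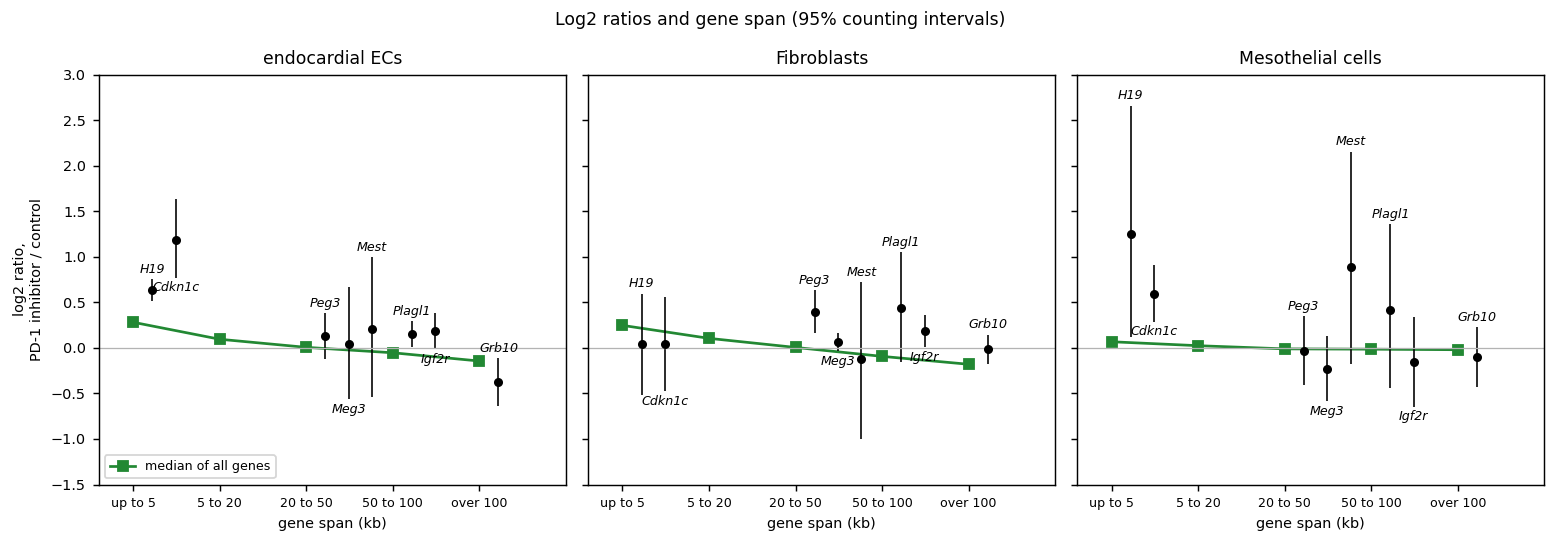
Median log2 ratio of all genes by class of gene span (green squares, in kb) and log2 ratios of the members in their class (black, with 95% counting intervals) in endocardial ECs, fibroblasts and mesothelial cells. The green line falls from 0.28 to -0.14 in endocardial ECs and from 0.07 to -0.02 in mesothelial cells, and Cdkn1c lies above it in both but below it in fibroblasts.

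Other values moved between the endocardial nuclei of the libraries as well. The 8 endocardial markers summed to 8568 CPM in Control and 9462 CPM in PD-1 inhibitor, none of them at 0. The 10 fibroblast markers summed to 3579 and 4710 CPM, none of them at 0, and the 10 cardiomyocyte markers to 3594 and 3679 CPM. MP markers (cells with macrophage markers) were also higher, at 191 and 240 CPM. Adipocyte (90.8 and 44.4 CPM), lymphatic EC (417 and 337 CPM) and valve EC (54.9 and 32.5 CPM) markers were lower in PD-1 inhibitor. Mitochondrial UMIs made up 1.62% and 1.73%, and Malat1, a nuclear RNA, 4.53% and 4.203%. The part of these in the H19 and Cdkn1c ratios was not tested. In all nuclei outside endocardial ECs together, H19 was at 18.1 and 30.2 CPM and Cdkn1c at 30.55 and 54.1 CPM. Among these, fibroblasts had 20.7 and 21.3 CPM of H19 and 23.4 and 24.2 CPM of Cdkn1c. Mesothelial cells had 10.1 and 25.1 CPM of H19, from 8 and 26 UMIs. The 6 cell cycle genes summed to 17.0 and 13.1 CPM in endocardial ECs.

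In capillary ECs, 0 of 5 members read were past 1.5-fold, where 17.0% of 6456 genes were. Grb10 (266 and 246 CPM), Mest (50.5 and 51.0 CPM) and Peg3 (55.9 and 51.0 CPM) had intervals of the ratio that include 0. So did Cdkn1c (0.47, -0.11 to 1.05) and Igf2r (0.46, -0.04 to 0.97). The Cdkn1c interval overlapped that in endocardial ECs (0.77 to 1.63), so that a smaller Cdkn1c difference was not shown. Genes of up to 5 kb, the class of Cdkn1c, had a median log2 ratio of 0.44 in capillary ECs. Of these 434 genes, 34.6% were past 1.5-fold higher. The Igf2r ratio was 0.18 in endocardial ECs.

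In valve ECs, H19 had a log2 ratio of 2.04 (0.94 to 3.53) on 7 and 37 UMIs, fewer than the 50 from which members are counted. The same nuclei had 1415 and 1834 median UMIs and 4.39% and 3.21% mitochondrial UMIs, and their 8 endocardial markers summed to 3940 and 4401 CPM. Their 10 fibroblast markers summed to 4298 and 5473 CPM, and their 10 mural markers to 267 CPM with 2 at 0 and to 110 CPM with 3 at 0. The part of these in the H19 ratio was not tested.

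In mesothelial cells, 1 of 6 members read was past 1.5-fold, against 12.1% of 7278 genes. That member was Cdkn1c, with a log2 ratio of 0.59 (0.29 to 0.91). The median log2 ratio of genes of up to 5 kb was 0.07 here, and Cdkn1c had 0.53 relative to genes of like span, just under 1.5-fold. It was also just under with at least 500 genes per nucleus (0.56) and with mitochondrial and ribosomal protein genes left out of the total (0.58). Nuclei were deeper in the PD-1 inhibitor library (medians of 1302 and 1724 UMIs). With every nucleus counted equally the Cdkn1c ratio was 1.00, and thinned to 500 UMIs it was 1.08. Mitochondrial UMIs made up 2.33% and 1.61%. The 10 mural markers summed to 184 and 120.5 CPM with none at 0, and the 10 adipocyte markers to 101 CPM with 1 at 0 and to 44.3 CPM with 4 at 0. The part of these in the Cdkn1c ratio was not tested.

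In cardiomyocytes, 2 of 7 members were past 1.5-fold, against 15.8% of 9242 genes. These were Cdkn1c, with a log2 ratio of 1.40 (0.54 to 2.38) on 16 and 36 UMIs, and Peg3, with 0.69 (0.05 to 1.35) on 37 and 50 UMIs. Peg3 was not past 1.5-fold with at least 500 genes per nucleus (0.49) or at most 5% mitochondrial UMIs (0.53). Markers of several other cell types were also higher in the cardiomyocytes of the PD-1 inhibitor library. The 10 fibroblast markers summed to 1415 and 2168 CPM, the 10 EC markers to 561 and 723 CPM, and the 10 mesothelial markers to 116 and 178 CPM. None was at 0 in these lists. Mural markers summed to 694 and 877 CPM, MP markers to 258 and 306 CPM and B cell markers to 165 and 214 CPM. The T cell (25.4 and 16.7 CPM), adipocyte (232 and 224 CPM) and glial (47.6 and 51.5 CPM) markers had overlapping intervals. Mitochondrial UMIs made up 3.85% and 4.92%, and the median log2 ratio of genes of up to 5 kb was 0.35. The part of these in the Cdkn1c and Peg3 ratios was not tested. In MPs, 1 of 4 members was past it, H19, whose 22 and 35 UMIs gave 1.07 (0.27 to 1.92), against 13.8% of 7972 genes. Among the 573 genes of up to 5 kb in MPs, the class of H19, the median was 0.29 and 23.2% were past 1.5-fold higher. As a mean over nuclei the H19 ratio in MPs was 0.59, the lowest of its alternatives. In mural cells 1 of 4 was past it, Peg3, with 50 and 57 UMIs and 0.73 (0.16 to 1.31), against 16.7% of 5122 genes. That call was lost at Leiden resolution 0.5 (0.37), with at least 500 genes per nucleus (0.41) and as a mean over nuclei (0.40).

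In fibroblasts, 0 of 8 members read were past 1.5-fold, against 9.66% of 10584 genes. Meg3, the member they express most of, had a log2 ratio of 0.06 (-0.03 to 0.16), and H19 and Cdkn1c had 0.04 and 0.05 with intervals reaching 0.59 and 0.56. Peg3 was higher by 0.40 (0.16 to 0.63) and Igf2r by 0.18 (0.01 to 0.36).

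Cdkn1c and Igf2r each share an imprinted domain with a long non-coding RNA that is known to silence them on the paternal chromosome. Kcnq1ot1 is transcribed from within Kcnq1 and acts on Cdkn1c, and Airn starts within Igf2r and acts on it. Kcnq1ot1 had 836 CPM (1280 UMIs) in Control and 526.5 CPM (924 UMIs) in PD-1 inhibitor endocardial ECs, a log2 ratio of -0.67 (-0.79 to -0.54). In mesothelial cells, where Cdkn1c was highest, Kcnq1ot1 was at 579 and 559.9 CPM, a log2 ratio of -0.05 (-0.23 to 0.13). In fibroblasts, where Cdkn1c had 0.05, Kcnq1ot1 had -0.65. Cardiomyocytes had -0.38 (-0.70 to -0.06) for Kcnq1ot1 and 1.40 for Cdkn1c. In mural cells the values were -0.79 and 0.87, and in MPs -0.89 and 0.75, the Cdkn1c intervals including 0 in both.

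**Figure D5:**
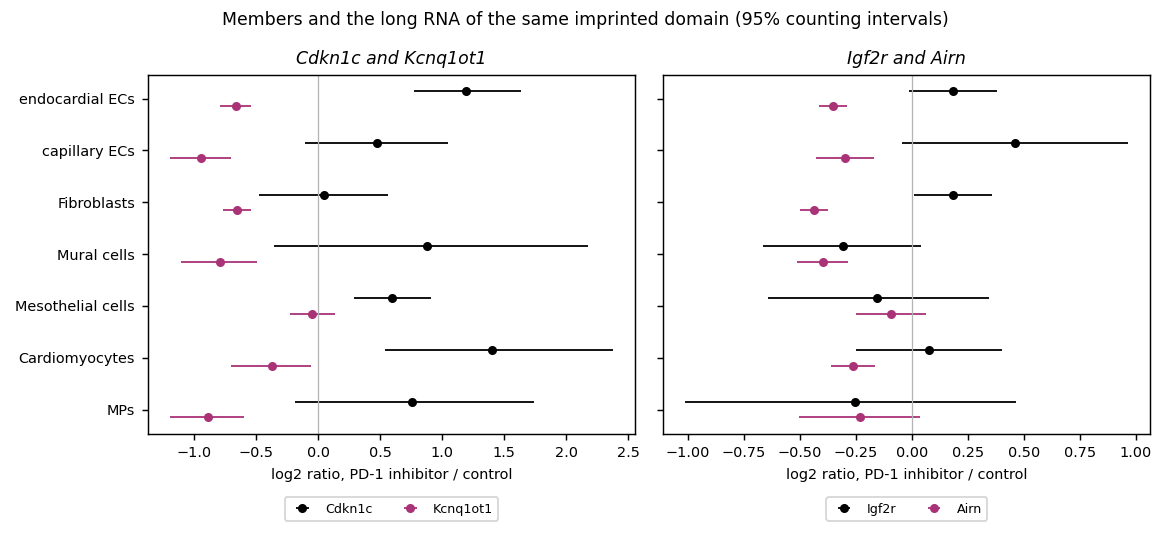
Log2 ratio of PD-1 inhibitor over Control for Cdkn1c and Kcnq1ot1 (left) and for Igf2r and Airn (right) in 7 cell types and EC subtypes, with 95% counting intervals. The interval of Kcnq1ot1 lies below 0 in 6 of the 7 groups and includes 0 in mesothelial cells, whereas Cdkn1c lies above 0 in each, with intervals that include 0 in 4. Ratios are not centred on genes of like span, and Cdkn1c (2.71 kb) and Kcnq1ot1 (93.1 kb) fall in different classes of span.

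Airn was counted far more often than the other neighbours, with 4280 UMIs (2796 CPM) in Control and 3842 UMIs (2189 CPM) in PD-1 inhibitor endocardial ECs, a log2 ratio of -0.35 (-0.42 to -0.29). Igf2r in the same nuclei had 0.18. Kcnq1ot1 spans 93.1 kb and Airn 119 kb. In endocardial ECs the median log2 ratio was -0.05 for genes of 50 to 100 kb and -0.14 for genes over 100 kb. Airn overlaps 32.5% of Igf2r, and Kcnq1ot1 lies wholly within Kcnq1, in each case on the opposite strand. The strand setting of the counting is not given in the sources used here, so reads of the overlapping parts may not be told apart. Cdkn1c does not overlap Kcnq1ot1.

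Of the further neighbours, Kcnq1, a potassium channel gene, had 108 and 80 UMIs in ECs (log2 ratio -0.39, -0.83 to 0.04), and Copg2 beside Mest had 218 and 201 UMIs (-0.08, -0.36 to 0.21). Rian, the next long RNA after Meg3, had 32 and 14 UMIs in ECs. Fibroblasts held 546 and 379 Rian UMIs, a ratio on the log2 scale of -0.26 (-0.45 to -0.07), where Meg3 had 0.06. Mirg had 7 and 3 UMIs in ECs, Usp29 beside Peg3 18 and 19, Phlda2 beside Cdkn1c 1 and 5, and Rtl1 and Zim1 each 1 and 0.

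Outside the 10 members, 41 of 42 further imprinted genes were in the files and 15 were read in ECs. Past 1.5-fold, where 10.6% of all genes lay, were 2 higher, Ndn (59 and 93 UMIs, log2 ratio 0.69) and Dcn (3815 and 6158 UMIs, 0.73), and 2 lower, Kcnq1ot1 (-0.66) and Ppp1r9a (103 and 60 UMIs, -0.73). Dcn encodes decorin, a matrix proteoglycan, and is 1 of the 10 fibroblast markers used here. The median log2 ratio of the 15 genes was -0.08. In endocardial ECs 0 of 14 were higher and 3 were lower past 1.5-fold, against 11.1% of all genes in either direction. They were Kcnq1ot1, Ppp1r9a (-1.14) and Kcnq1 (-0.60).

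Of 21 genes of the IGF pathway, 13 were read in ECs, with 1 higher and 1 lower past 1.5-fold, against 10.6% of all genes, and a median log2 ratio of 0.02. Stc1, a secreted glycoprotein that inhibits the cleavage of IGF-binding proteins, had 88 and 143 UMIs (0.74, 0.35 to 1.14). Irs2, an adaptor of the insulin and IGF receptors, had 57 and 17 UMIs (-1.68, -2.58 to -0.90). Igf1r, the receptor through which IGF1 and IGF2 signal, had 629 and 619 UMIs (0.02, -0.15 to 0.18), and Insr had 630 and 544 UMIs (-0.17, -0.34 to -0.0038). Igf1 had 98 and 108 UMIs in ECs.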

How the data were processed

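Single-nucleus libraries were made with the GEXSCOPE kit. The files deposited by the authors hold raw UMI counts, 1 matrix of genes by nuclei for each library. The submitters' processing notes name the builds GRCm38 and mm10. The aligner, counting software and barcode caller are not given in the sources used here. A nucleus needed 200 detected genes and no more than 20% of its UMIs from mitochondrial genes, which removed 83 Control and 15 PD-1 inhibitor barcodes, and Scrublet doublets (592 and 308) were removed. UMIs were scaled to 10000, logged, and 2000 variable genes, without the members and the wider imprinted list, gave 30 components, 15 neighbours and Leiden clusters at resolution 1 (scanpy 1.11.5, leidenalg 0.10.2, Python 3.11.15). A marker counted in a cluster with a UMI in at least 5% of nuclei and over 2 times the CPM elsewhere; naming needed at least 3. The unnamed cluster carries cell cycle genes.

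Control and PD-1 inhibitor have 1 library each, so no test was made. Levels have exact Poisson intervals, shares exact Clopper-Pearson intervals and ratios exact conditional binomial intervals at 95%. A count of 0 is given with the level that 3 counts would make. The ratio step was tested on simulated counts drawn without unevenness among nuclei, so that test does not cover it. Groups with fewer than 50 nuclei in a library got no ratio. Gene spans are from GENCODE vM21 on GRCm38, in which 32522 of 32589 gene identifiers matched.

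The members, marker and gene lists and alternatives were chosen with earlier results of these data known. Named are all members, listed genes past 1.5-fold in ECs with at least 50 UMIs, the neighbours in the members' domains, and the 3 most alike genes of each member with at least 200 UMIs. Kcnq1, Igf1, Igf1r and Insr were added after their values were seen. Alternatives were other filters, resolutions, denominators, thinning, the same mix of subtypes and centring. Added after the data were seen were the same mix of finer endocardial clusters, removal of shared barcodes and centring on genes of like span.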

Additional observations from a re-analysis of the deposited data

Results flagged for a closer look

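The cluster left unnamed for its cell cycle genes enters no comparison. H19 stood out there in the PD-1 inhibitor library, at 592.9 CPM (316 to 1014) against 48.5 CPM (10 to 142) in Control. The value rests on 13 UMIs in 2 of 13 nuclei, 9 in one and 4 in the other, against 3 UMIs in 1 of 31 Control nuclei. No other member had a level in this cluster whose intervals in the libraries did not overlap.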

How the results depend on the processing

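No paired analysis was possible because each condition has 1 library and no test was made. Under the alternative settings, 658 values stayed within the counting interval of the reported value and 35 did not. No ratio whose interval leaves out 0 changed its sign. With the same mix of EC subtypes, the log2 ratios in ECs were 0.64 for H19 and 0.15 for Plagl1, down from 0.87 and 0.37. The fall, not the ratio that remains, follows from the larger endocardial share of the PD-1 inhibitor library. Relative to genes of like span, H19 was 0.56 in ECs and 0.35 in endocardial ECs, Cdkn1c in ECs was 0.50, and Grb10 was -0.11 in ECs, 0.16 in fibroblasts and 0.23 in cardiomyocytes. At Leiden resolution 2, in which 1 of the 4 finer clusters keeps the endocardial name, Grb10 was -0.72 and Mest -0.74 in endocardial ECs. The levels there, Control then PD-1 inhibitor, were 664 and 1035 CPM for H19, 536 and 595 CPM for Plagl1, and 187 and 229 CPM for Igf2r. With at least 500 genes per nucleus, H19 was 650.4 and 1019 CPM and Plagl1 550.5 and 592 CPM. The endocardial cluster then held 848 and 947 nuclei, and the valve cluster 247 and 223. With at most 5% mitochondrial UMIs, the endocardial name covered 760 and 909 nuclei. A cluster of 687 and 639 EC nuclei with H19 and Plagl1 among its leading genes got no subtype name. In that setting, endocardial H19 was 523 and 851 CPM, Igf2r 208 and 221 CPM, and Plagl1 465 CPM in PD-1 inhibitor. As a mean over nuclei, Cdkn1c in mesothelial cells had a ratio of 1.00 and 310.4 CPM in PD-1 inhibitor, and Meg3 in PD-1 inhibitor fibroblasts 626 CPM. Thinned to 500 UMIs, mesothelial ratios were 1.08 for Cdkn1c, -0.60 for Meg3 and 0.23 for Grb10, Cdkn1c was 346 CPM in PD-1 inhibitor, and endocardial nuclei with a UMI were 16.2% and 21.2% for H19 and 16.8% and 20.5% for Plagl1. Apart from the mix of subtypes, the cause of these shifts was not tested. The H19 ratio in endocardial ECs ranged from 0.35 to 0.70 and that of Cdkn1c from 0.91 to 1.42 over all alternatives. Both upper ends come from the setting with at most 5% mitochondrial UMIs, in which fewer nuclei carried the endocardial name. Depth of about 1000 UMIs per nucleus leaves members with under 20 UMIs in a cell type without a ratio.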
